A study of Mus musculus with 7 samples.

Results

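Immediate early genes are genes that cells can switch on within minutes of a stimulus without making new protein first, and stress genes respond to heat, dissociation and other insults. The 10 genes described here (Fos, Fosb, Jun, Junb, Jund, Egr1, Atf3, Ier2, Dusp1 and Hspa1a) were found by their symbols in the deposited gene list. Each symbol matched 1 of 32285 genes, so all 10 of 10 were measured. FOS and JUN proteins pair to form the transcription factor AP-1. EGR1 and ATF3 are transcription factors induced by growth signals and by stress, DUSP1 is a phosphatase that switches MAP kinases off again, and HSPA1A is an inducible HSP70 chaperone. In brain macrophages and microglia these genes are widely known to respond both to signals in tissue and to the handling of cells outside it, and in lymphocytes many of them follow receptor stimulation.

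The cells were live leukocytes (CD45+, DRAQ7-) sorted from the tumour-bearing left hemisphere of wild-type female mice aged 8 to 9 weeks, 21 days after implantation of GL261, a mouse glioma line. The groups were untreated mice (1 library), PT2385, an inhibitor of the hypoxia factor HIF-2α given at 10 mg/kg from day 7 (2 libraries), immune checkpoint blockade or ICB with antibodies to PD-1 and TIM-3 (2 libraries), and PT2385 with ICB, called the combination (2 libraries). The protocols mention a vehicle and isotype antibodies but do not say which animals labelled untreated received them. Each library pooled cells of 2 mice out of 4 in the group, with 5000 cells planned per mouse, so 7 libraries of 14 mice were compared. The other untreated mice were not analysed here.

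Transcripts were counted as unique molecular identifiers (UMIs) by droplet sequencing from the 3' end. Of 41033 barcodes, 38441 passed the filters on genes, mitochondrial UMIs and doublets, and the libraries' median depth was 8087 to 11674 UMIs per cell. Cells were typed by counting how many marker transcripts each held, with none of the 10 genes among the markers. Of these cells, 24332 fell in 7 types with at least 30 cells in every library. They were microglia (4464 cells), monocyte/macrophages (14896), conventional dendritic cells (1125), CD8 T cells (1465), conventional CD4 T cells (633), regulatory T cells (547) and NK cells (1202). No gate took 11914 cells (31.0%). The sum over 9 microglial markers was 5012 to 7766 CPM in microglia, and the sum over 10 NK markers was 9781 to 13725 CPM in NK cells. The gates used these same markers, so the sums are no separate check of the types. CPM is the UMI count of a gene scaled to 1000000 UMIs over all cells of a type in a library. Of the 41033 barcodes, 180 occurred in 2 libraries.

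The promoters of 8 of the 10 genes were matched by symbol in a table of RefSeq promoters (build GRCm38.p6). The 5 shown were chosen because they hold matches to well-known response elements or, for Fosb, because the gene fell with PT2385 in NK cells. Each line holds the 200 bases before the annotated start, 5' to 3' on the gene's strand. Capitals mark matches on either strand to TGACGT, the core of the cAMP response element. They also mark the TATA box letters TATAAA, the letters CCAAT of the box of that name, and GAANNTTC, a pair of heat shock units. Matches that overlap run together.
Fos: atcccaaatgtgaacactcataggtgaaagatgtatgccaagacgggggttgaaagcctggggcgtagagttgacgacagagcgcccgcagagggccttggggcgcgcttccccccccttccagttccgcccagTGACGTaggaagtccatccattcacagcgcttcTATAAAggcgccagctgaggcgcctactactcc
Fosb: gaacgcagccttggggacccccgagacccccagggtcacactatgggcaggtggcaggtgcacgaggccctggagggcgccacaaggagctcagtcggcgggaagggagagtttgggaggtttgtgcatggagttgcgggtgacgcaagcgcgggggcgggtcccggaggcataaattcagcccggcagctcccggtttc
Atf3: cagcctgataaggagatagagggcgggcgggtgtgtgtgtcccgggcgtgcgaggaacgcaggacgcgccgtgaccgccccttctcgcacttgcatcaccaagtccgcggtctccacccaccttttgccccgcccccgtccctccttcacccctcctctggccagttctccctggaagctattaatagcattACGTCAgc
Dusp1: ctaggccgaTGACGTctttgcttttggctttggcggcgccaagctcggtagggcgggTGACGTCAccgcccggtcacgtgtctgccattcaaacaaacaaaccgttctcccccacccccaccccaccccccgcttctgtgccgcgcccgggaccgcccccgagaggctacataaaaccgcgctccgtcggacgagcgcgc
Hspa1a: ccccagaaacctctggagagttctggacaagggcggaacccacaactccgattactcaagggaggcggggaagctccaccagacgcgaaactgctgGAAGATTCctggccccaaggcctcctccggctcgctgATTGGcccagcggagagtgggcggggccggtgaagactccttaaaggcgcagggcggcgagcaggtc
The Fos stretch (GRCm38, chr12:85473690-85473889, plus strand) held 1 TGACGT whose first base lay at -66 and 1 TATAAA at -33, counted from the start site. The Atf3 stretch (chr1:191183334-191183533, minus strand) held 1 TGACGT at -8. Dusp1 (chr17:26508473-26508672, minus strand) held 3 matches to TGACGT, at -191, -143 and -141, the last 2 overlapping as a palindrome. The Hspa1a stretch (chr17:34972157-34972356, minus strand) held 1 GAANNTTC at -104 and 1 CCAAT at -67. In the Fosb stretch (chr7:19310046-19310245, minus strand) these letters were not found. Over the full windows of 300 bases in the table, TGACGT was in 3 of 8 members and in 7.51% of 32851 promoters. GAANNTTC was in 2 of 8 (Jun and Hspa1a) against 7.86%, CCAAT in 4 of 8 against 37.4%, and TATAAA in 2 of 8 against 13.6%. The AP-1 motif TGANTCA was in 0 of 8 against 7.81%, the motif TTCNNGAA in 0 of 8 against 8.52%, and the CArG box in 0 of 8 against 1.63%. The windows ran from 250 bases before the start to 50 after it, so letters further away were not searched. No promoter of Egr1 or Ier2 was searched. These are matches of letters, and no binding was measured.

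Cell type set most of the spread of these genes. Every ranking of types below is among the 7 types unless smaller types are named. Of the variance of log2 CPM over 7 types and 7 libraries, type held 81.4% (Junb) to 97.2% (Atf3) for 9 of the genes and 36.6% for Hspa1a, beside a median of 78.7% over 7318 genes measured in every type. Each type was compared with the mean of the other 6 in a single edgeR fit with library as a block. Of 70 gene-by-type results 62 passed an adjusted p of 0.05, 25 higher and 37 lower, where 62.2% of all gene-by-type results passed. When types were put in order by their mean for each gene, the ranges of neighbouring types over the 7 libraries overlapped in 49 of 60 pairs. This count was not made over all genes, so it does not set the members apart. Types were measured in the same libraries, so ranges can overlap where 1 type was higher in every library. Jund in microglia against regulatory T cells was such a pair.

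**Figure D1:**
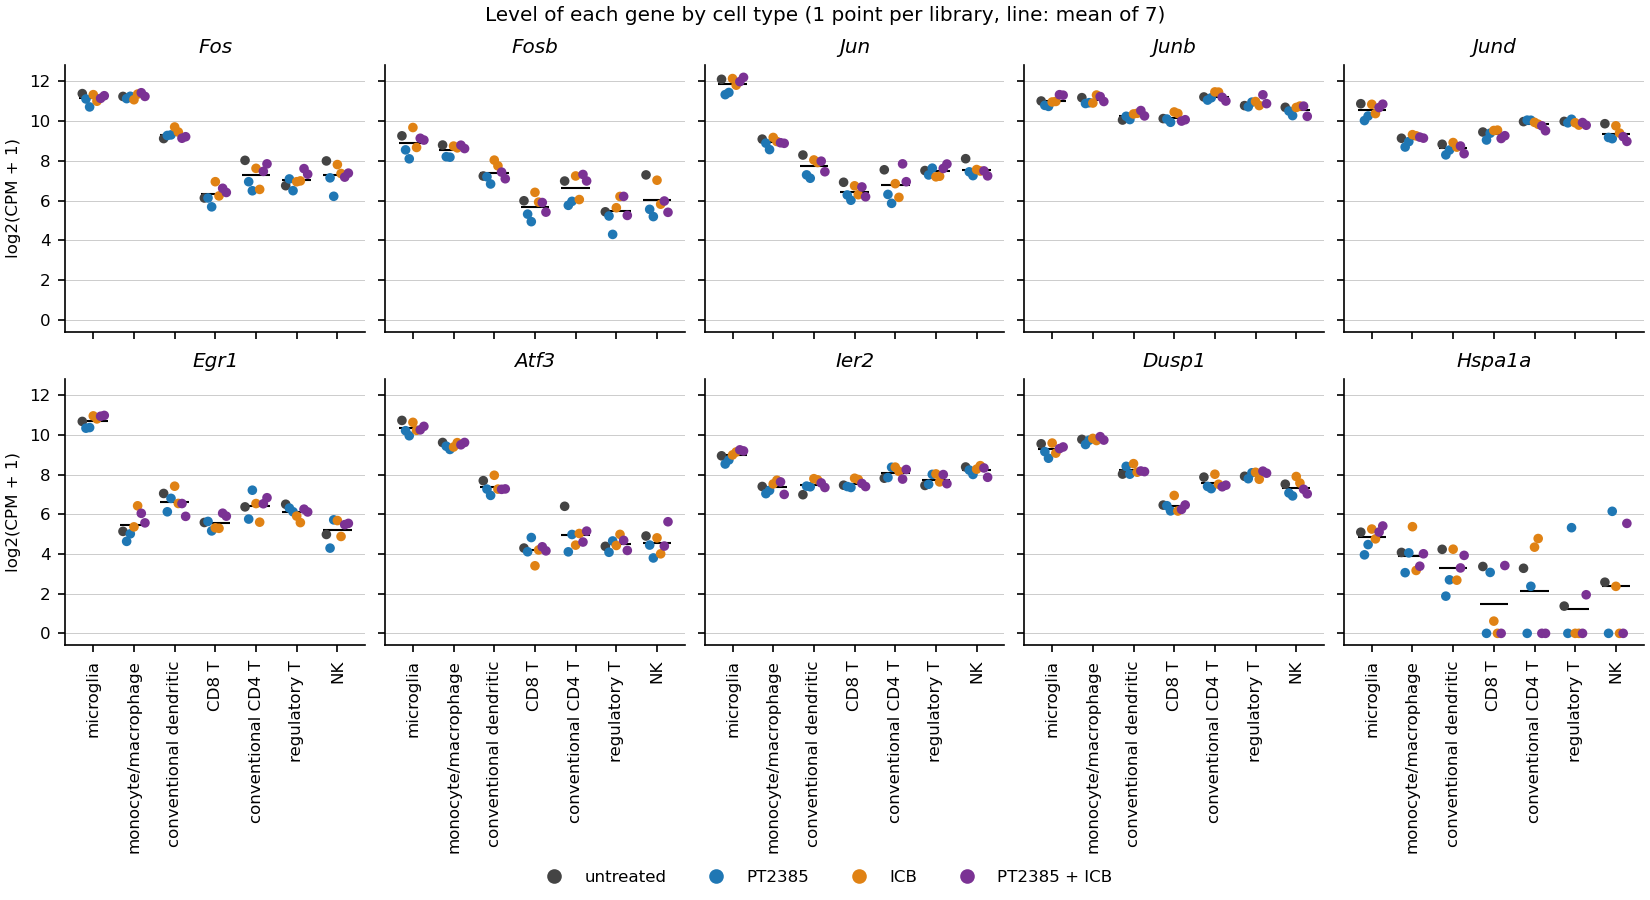
Level of each gene, as log2(CPM + 1) on the y axis, in 7 cell types on the x axis. Points are the 7 libraries coloured by group and lines their mean. Jun, Egr1 and Atf3 were highest in microglia, the ranges of Fos in monocyte/macrophages and microglia overlapped, and Junb was at 982 CPM or more in every library of every type.

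Fos, the founding partner of AP-1, was a myeloid transcript in these cells. Monocyte/macrophages held 2441 ± 206 CPM (SD, n = 7 libraries, range 2162 to 2760) and microglia 2280 ± 343 CPM (range 1681 to 2676), and these ranges overlapped. Conventional dendritic cells followed at 642 ± 97.2 CPM, above every lymphoid library. The lymphoid means were 166 CPM in conventional CD4 T cells and in NK cells, 133 CPM in regulatory T cells and 80.8 CPM in CD8 T cells, with overlapping ranges. In the edgeR fit of levels monocyte/macrophages exceeded the other types by 3.49 ± 0.09 (log2 ± SE, adjusted p = 3.36e-33). CD8 T cells lay 2.66 below the others (edgeR adjusted p = 1.8e-20, estimate -2.66 ± 0.14). Lyz2, a macrophage lysozyme, stood in CD8 T cells at 0.552% to 1.49% of its macrophage level, while Fos stood at 2.06% to 5.67%. The 12 monocyte/macrophage markers together stood there at 4.81% to 15.4%. The part of RNA free in the droplets in these levels was not tested.

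Fosb, a FOS relative induced with it, was highest on average in microglia (511 ± 180 CPM), followed by monocyte/macrophages (384 ± 65.7 CPM) and dendritic cells (170 ± 51.1 CPM). Microglia were above monocyte/macrophages in 6 of 7 libraries, and the ranges overlapped. In lymphocytes its level ran from 46.9 ± 19.9 CPM in regulatory T cells to 105 ± 44.4 CPM in conventional CD4 T cells.

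Among the JUN genes, Jun marked microglia. Its microglial level was 3812 ± 855 CPM (range 2582 to 4721). That was 5.45 to 10.0 times the level in monocyte/macrophages of the same library, which held 490 ± 63.5 CPM. The ranges of these types did not overlap. All other types lay between 88.2 CPM (CD8 T cells) and 219 CPM (dendritic cells) on average. Jund, a JUN gene usually expressed without a stimulus, also had its highest mean in microglia at 1545 ± 342 CPM. In PT2385 pool 1 conventional CD4 T cells (1059 CPM) read above microglia (1044 CPM). Regulatory T cells (969 ± 70.9 CPM) and conventional CD4 T cells (946 ± 117 CPM) came next and overlapped, and dendritic cells were lowest at 399 ± 63.8 CPM.

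Junb was the member spread most evenly. Its means ran from 1149 ± 161 CPM in CD8 T cells to 2414 ± 306 CPM in conventional CD4 T cells, and neighbouring ranges overlapped throughout that order. In the edgeR fit of levels, regulatory T cells did not differ from the mean of the others (0.04 ± 0.07, adjusted p = 0.649).

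Egr1, a zinc finger factor of growth and activity signals, was close to restricted to microglia among the 7 types. Microglia held 1715 ± 308 CPM (range 1294 to 2019) and the next type, dendritic cells, 103 ± 38.0 CPM. Monocyte/macrophages held 46.6 ± 21.5 CPM, which was 1.84% to 4.75% of the microglial level in the same library. The 9 microglial markers together stood in monocyte/macrophages at 2.12% to 2.89% of their microglial level. Whether Egr1 in monocyte/macrophages came from free RNA or from the cells themselves was not tested. In the edgeR fit microglia exceeded the other types by 4.75 ± 0.12 (adjusted p = 1.07e-33).

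Atf3, a stress-induced repressor of the ATF family, fell from microglia (1322 ± 247 CPM) over monocyte/macrophages (721 ± 66.4 CPM) to dendritic cells (170 ± 42.6 CPM) without overlap between these neighbours. All 4 lymphoid types had means of 18.0 to 34.4 CPM, and their ranges overlapped. Ier2, a small nuclear protein of the early response, was highest in microglia (507 ± 86.2 CPM), with no overlap with NK cells (299 ± 41.9 CPM). Monocyte/macrophages held the least (166 ± 32.4 CPM). Dusp1 was highest in monocyte/macrophages (859 ± 70.5 CPM), which exceeded microglia (626 ± 114 CPM) in 7 of 7 libraries although the ranges overlapped. CD8 T cells held the least Dusp1 at 85.6 ± 17.9 CPM.

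Microglia and monocyte/macrophages were then compared directly in the fit of levels, a contrast added after the levels had been seen. Of 10 members 8 differed, where 75.6% of all genes did. Microglia were higher in Egr1 (4.93 ± 0.23), Jun (2.65 ± 0.14), Ier2 (1.33 ± 0.10), Jund (1.18 ± 0.10) and Atf3 (0.56 ± 0.14; the largest edgeR adjusted p of these 5 was 0.000305). Monocyte/macrophages were higher in Dusp1 (-0.77 ± 0.09), Fos (-0.42 ± 0.14) and Junb (-0.33 ± 0.09, edgeR adjusted p = 0.00111). TMM scaling moved this contrast by -0.30 on the log2 scale against plain CPM. On the CPM scale the means of Fos and Junb kept this order, but each was higher in monocyte/macrophages in 4 of 7 libraries. The size of these differences therefore depends on the scaling.

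The types with fewer cells are given as sums over libraries, with no test. Mast cells or basophils (257 cells) carried 3437 CPM of Jun, 2074 CPM of Egr1, 4199 CPM of Junb, 2568 CPM of Jund and 1995 CPM of Ier2. Atf3 was at 125 CPM. ICB pool 1 held 146 of these 257 cells and 2694 of the Egr1 UMIs, at 3162 CPM. Summed over the other 6 libraries, mast cells or basophils held 2946 CPM of Jun, 899 CPM of Egr1, 2725 CPM of Junb, 2154 CPM of Jund and 1062 CPM of Ier2. Neutrophils (92 cells) held 1456 CPM of Fos and 601 CPM of Egr1, or 2017 and 981 CPM without ICB pool 1, which held 39 of the cells. B cells (175 cells) held 217 CPM of Fos and 113 CPM of Egr1. Cells with choroid plexus markers (1419 cells) held 69.7 CPM of Fos, 37.4 CPM of Jun and 44.7 CPM of Junb. Without combination pool 2, which held 716 of them, these were 36.3, 27.2 and 41.9 CPM.

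Hspa1a was rare and uneven. In all 24332 cells of the 7 types it had 4608 UMIs in 2147 cells (8.82%), and 323 cells held 50% of them. Microglia held 29.6 ± 9.47 CPM and 16.7% of microglia had a UMI. The 7 microglial libraries read 33.2 (untreated), 14.5 and 21.2 (PT2385), 37.2 and 26.1 (ICB), and 33.4 and 41.5 CPM (combination). Both PT2385 pools were the lowest. In lymphocytes single cells set the level. NK cells of PT2385 pool 2 held 69.9 CPM of Hspa1a, and all 65 of these UMIs were in 1 cell. Regulatory T cells of the same pool held 39.1 CPM from 21 UMIs in 3 cells, 1 of which held 13. The 2 NK cells with at least 5 Hspa1a UMIs also held 4604 CPM of Hspa1b and 3479 CPM of Dnajb1, an HSP40 co-chaperone, against 3.19 and 47.0 CPM in NK cells with no Hspa1a UMI. In monocyte/macrophages, 83 cells had at least 5 Hspa1a UMIs, and 30 of them were in ICB pool 1. Hspa1a and Hspa1b are near-identical copies, so their split by the counting is uncertain.

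Within a type, many of these genes moved together over the libraries. For each gene and type, the log2 CPM of a library was set against the mean of the 7 libraries. In PT2385 pool 1, 62 of 70 gene-and-type values lay below that mean, in PT2385 pool 2 50 of 70, and in ICB pool 2 37 of 70. Combination pools 1 and 2 had 27 and 34 of 70 below, the untreated library 22 of 70 and ICB pool 1 18 of 70. These counts were not made over all genes. Fosb was below in 7 of 7 types in both PT2385 pools and above in 7 of 7 types in ICB pool 1. Jun and Jund were above in 7 of 7 types in the untreated library. The library's share of the variance left within types was 64.8% for Fosb, 52.1% for Jun, 50.3% for Dusp1, 44.4% for Jund and 40.7% for Fos. It was 22.0% for Egr1 and 22.1% for Atf3, beside a median of 20.9% over 7318 genes.

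**Figure D2:**
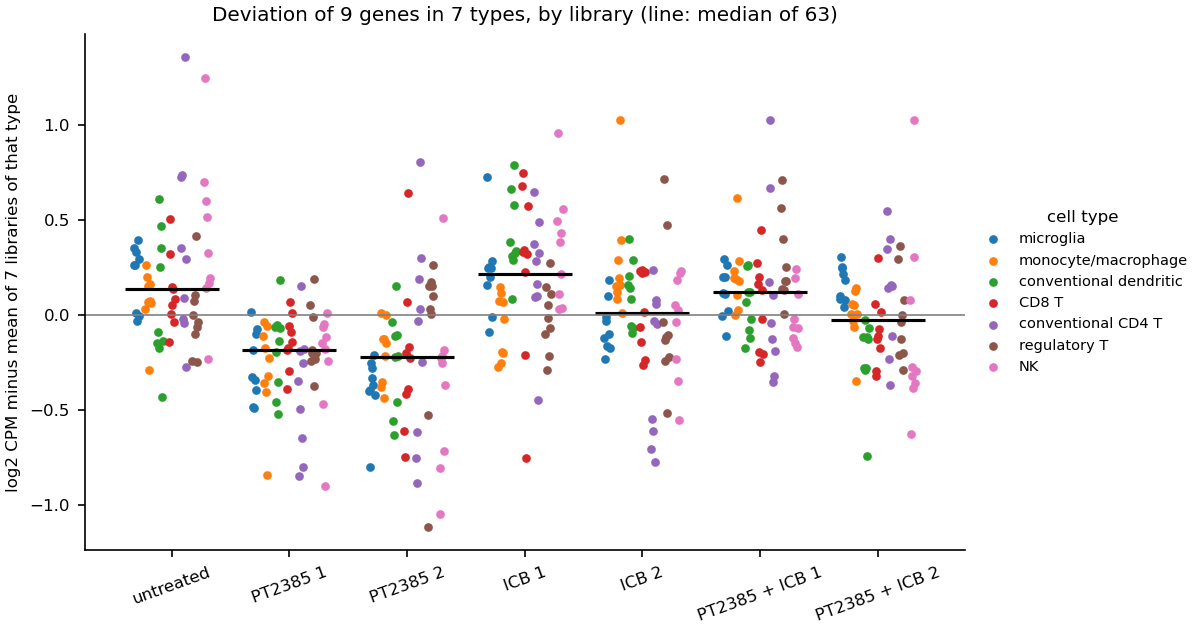
Deviation of log2 CPM from the mean of the 7 libraries of the same cell type (y axis) for 9 genes without Hspa1a, in each library (x axis), coloured by type. Lines are medians of 63 values. In PT2385 pools 1 and 2, 55 and 47 of 63 values lay below 0, and in ICB pool 1 and the untreated library 15 and 20 of 63.

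Depth per cell differed between the libraries. The libraries with the most values below the mean had the highest median depths: 11674 UMIs per cell in PT2385 pool 1, 10531 in PT2385 pool 2 and 10274 in ICB pool 2. The untreated library and ICB pool 1 had the lowest, 8087 and 8364 UMIs, and combination pools 1 and 2 had 9669 and 8768. Within types the order of depth was another one: in monocyte/macrophages the combination pools were the deepest (14327 and 14080 UMIs), and in microglia combination pool 1 was (9354 UMIs). The median share of mitochondrial UMIs was 1.23% without treatment and ran from 1.43% to 1.68% over the treated pools. Transcripts of Ttr, a choroid plexus gene found here in every type, were at 0 to 0.371 CPM in the untreated library, 0 to 39.8 CPM in the PT2385 pools, 31.2 to 100.5 CPM in the ICB pools and 199 to 322 CPM in the combination pools. The part of depth, mitochondrial share and Ttr in the members' levels was not tested. With 1 untreated library, its own handling and the untreated state cannot be told apart.

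PT2385 was tested across all libraries given it (4) against the others (3) in an additive edgeR model with a term for ICB. Fosb and Jund fell in NK cells, and these were the calls among 70 gene-by-type results: 2 of 70 passed, where 0.279% of all gene-by-type results did. Falls in NK cells alone took 0.49% of genes. By DESeq2 3 of 70 passed, where 1.84% of all did, and 23 of 70 had an unadjusted edgeR p under 0.05, where 9.6% of all did. The estimates of 53 of 70 were below 0, with a median of -0.22 against 0.00 over all genes tested. Fosb was below 0 in 7 of 7 types, from -1.38 in NK cells to -0.22 in conventional CD4 T cells, and Jund in 7 of 7, from -0.58 to -0.003. Egr1 was below 0 in 3 of 7.

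In NK cells Fosb read 156 CPM in the untreated library, 46.0 and 35.5 CPM with PT2385, 129 and 55.3 CPM with ICB, and 61.9 and 41.4 CPM with the combination. The untreated library and ICB pool 1 stood apart, and ICB pool 2 lay inside the range of the PT2385-treated libraries. The fall was -1.38 ± 0.27 on the log2 scale (edgeR adjusted p = 0.0228). The share of NK cells with a Fosb UMI, after thinning every cell to 3000 UMIs and leaving out the shallower ones, was 29.9% untreated and 10.6% and 5.98% with PT2385. It was 21.5% and 15.9% with ICB, and 11.9% and 8.33% with the combination. Unthinned, it was 36.6%, 18.0%, 13.9%, 30.6%, 18.8%, 20.5% and 14.3% in the same order. Lyz2 stood in NK cells at 0.811% to 2.87% of its level in monocyte/macrophages and Fosb at 10.6% to 35.1%. The 12 monocyte/macrophage markers together stood at 5.46% to 8.15%, and the part of free RNA was not tested.

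Jund in NK cells read 935 CPM untreated, 577 and 554 CPM with PT2385, 869 and 674 CPM with ICB, and 594 and 504 CPM with the combination. All 4 libraries with PT2385 were below all 3 without it. It fell by 0.58 (estimate -0.58 ± 0.10, edgeR adjusted p = 0.0148). Dusp1 in NK cells, at 182 CPM untreated, 134 and 121 with PT2385, 238 and 189 with ICB and 152 and 130 with the combination, showed the same separation and missed the threshold (-0.56 ± 0.13, edgeR adjusted p = 0.0511). Without the untreated library 0 of 70 results passed for PT2385, with estimates of -0.91 for Fosb and -0.48 for Jund in NK cells. Fosb was also lost without either PT2385 pool, without ICB pool 1, with the stricter gate and with means of per-cell CPM.

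**Figure D3:**
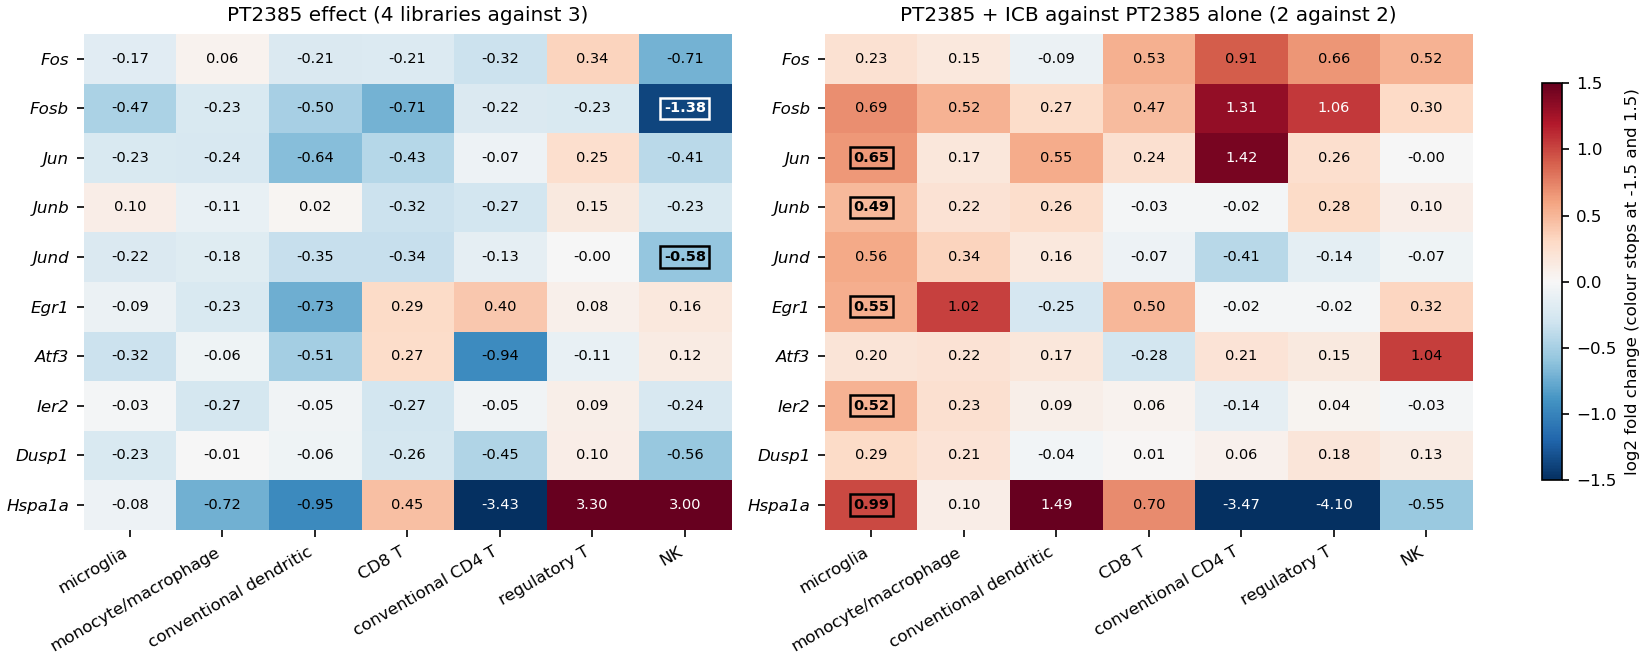
Log2 fold changes of the 10 genes (rows) in 7 cell types (columns) for PT2385 (left) and for the combination against PT2385 alone (right), with boxes where the edgeR adjusted p passed 0.05. On the left 2 boxes lie in NK cells (Fosb -1.38, Jund -0.58), on the right 5 lie in microglia.

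Whether the change with PT2385 was shared by all types was asked of the mean over the 7 types of each gene's log2 CPM. With limma 0 of 10 members passed, where 0.0547% of 7318 genes did, and 3 of 10 had an unadjusted p under 0.05, where 10.5% of genes did. Jund had -0.26 ± 0.07 (limma adjusted p = 0.231), Fosb -0.51 ± 0.16 (limma adjusted p = 0.294) and Dusp1 -0.20 ± 0.09 (limma adjusted p = 0.459). Whether a type departed from the others was asked of each type's log2 CPM minus the mean of the other 6. Here 0 of 70 passed in limma, where 0.00976% of 51226 results did, and 8 of 70 had an unadjusted p under 0.05, where 6.93% of all did. The smallest p belonged to Egr1 and Jun in dendritic cells and to Hspa1a in conventional CD4 T cells. Egr1 had -0.84 ± 0.23 and Jun -0.45 ± 0.15 (limma adjusted p = 0.92). Hspa1a had -2.37 ± 0.73, on 36 UMIs over the 7 libraries. For NK cells this difference was -0.78 ± 0.26 for Fosb (limma adjusted p = 0.716) and -0.36 ± 0.15 for Jund (limma adjusted p = 0.749). So the falls in NK cells were not shown to differ from the estimates in the other types, and a shift in all types was not shown either.

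For ICB (4 libraries against 3) 0 of 70 results passed in edgeR, where 0.0293% of all did. By DESeq2 1 of 70 passed (Egr1 in microglia, 0.39), where 0.277% of all did, and 14 of 70 had an unadjusted edgeR p under 0.05, where 7.31% of all did. Egr1 in microglia read 1636 CPM untreated, 1294 and 1322 with PT2385, 1987 and 1789 with ICB, and 1961 and 2019 with the combination. The 4 ICB-treated libraries were above the other 3 (0.40 ± 0.11, edgeR adjusted p = 0.221). Ier2 in microglia also separated, with 507 to 606 CPM in the ICB-treated libraries against 369 to 492 CPM (0.35 ± 0.12, edgeR adjusted p = 0.301). In monocyte/macrophages Egr1 was 40.2 to 85.0 CPM against 23.8 to 34.2 CPM (0.95 ± 0.28, edgeR adjusted p = 0.486). The microglial markers summed there to 156 to 191 CPM with ICB and 138 to 209 CPM without. Over the mean of types 0 of 10 passed in limma, where 0.0137% of genes did, and 3 of 10 had an unadjusted p under 0.05, where 8.31% of genes did. These were Ier2 (0.18 ± 0.08), Junb (0.15 ± 0.06) and Fosb (0.37 ± 0.16, limma adjusted p = 0.578). For a type against the others 0 of 70 passed in limma, where 0% of 51226 results did, and 4 of 70 had an unadjusted p under 0.05, a share near the 5.99% of all results that did.

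The combination was compared with ICB alone (2 libraries against 2), and 0 of 70 results passed in edgeR, where 0.149% of all did. By DESeq2 0 of 70 passed, where 0.544% of all did, and 18 of 70 had an unadjusted edgeR p under 0.05, where 9.23% of all did. In NK cells the estimates were -0.60 ± 0.17 for Dusp1 and -0.49 ± 0.14 for Jund (both edgeR adjusted p = 0.220). Hspa1a in conventional CD4 T cells had UMIs in both ICB pools (19.3 and 26.4 CPM) and 0 in both combination pools. In ICB pool 2 all 15 UMIs were in 1 of 91 cells, and in ICB pool 1 13 UMIs were in 4 of 104 cells.

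Against PT2385 alone, a comparison added after the values had been seen, the combination was higher in microglia for Jun, Junb, Egr1, Ier2 and Hspa1a. These were the 5 of 70 results called by edgeR, where 0.711% of all results passed and rises in microglia took 1.39% of genes. With DESeq2 7 of 70 passed, where 0.574% of all did, and 21 of 70 had an unadjusted edgeR p under 0.05, where 7.48% of all did. Jun in microglia read 2582 and 2783 CPM with PT2385, 4068 and 4721 CPM with the combination, 3594 and 4525 CPM with ICB and 4413 CPM untreated. Both PT2385 pools were the lowest of the 7 libraries, and combination pool 2 was the highest. The rise was 0.65 ± 0.14 (edgeR adjusted p = 0.0350). Junb read 1776 and 1713 CPM with PT2385, 2576 and 2533 CPM with the combination, 1997 and 2036 CPM with ICB and 2067 CPM untreated. For this gene the combination pools were also above all others (0.49 ± 0.12, edgeR adjusted p = 0.0458).

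Egr1, with the microglial values given for ICB, rose by 0.55 ± 0.11 (edgeR adjusted p = 0.0303). The thinned share of microglia with an Egr1 UMI was 69.1% and 70.0% with PT2385 against 87.2% and 80.3% with the combination. Ier2 read 369 and 426 CPM with PT2385 and 606 and 584 CPM with the combination (0.52 ± 0.12, edgeR adjusted p = 0.0404). Hspa1a rose by 0.99 ± 0.21 (edgeR adjusted p = 0.0331), from 14.5 and 21.2 CPM to 33.4 and 41.5 CPM. Jund (0.56 ± 0.15, edgeR adjusted p = 0.0735) and Fosb (0.69 ± 0.26, edgeR adjusted p = 0.169) had estimates of like size and did not pass.

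The make-up of the microglial gate moved with these rises. Microglial markers summed to 5012 and 5864 CPM in the PT2385 pools and to 6743 and 7766 CPM in the combination pools. Monocyte/macrophage markers in the same cells summed to 1146 and 1198 CPM against 667 and 542 CPM. Apoe was at 5396 and 5424 CPM against 3751 and 2560 CPM. The gate held 241 and 351 cells against 944 and 1555. The part of these in the result was not tested. With 1 more marker required and the limits on other lineages lowered, 2 of 70 passed, Hspa1a in microglia among them, and Jun had 0.54. Without either PT2385 pool or combination pool 2 none of the 70 passed, without combination pool 1 Hspa1a in microglia alone did, and without ICB pool 1 or 2 9 and 8 did.

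**Figure D4:**
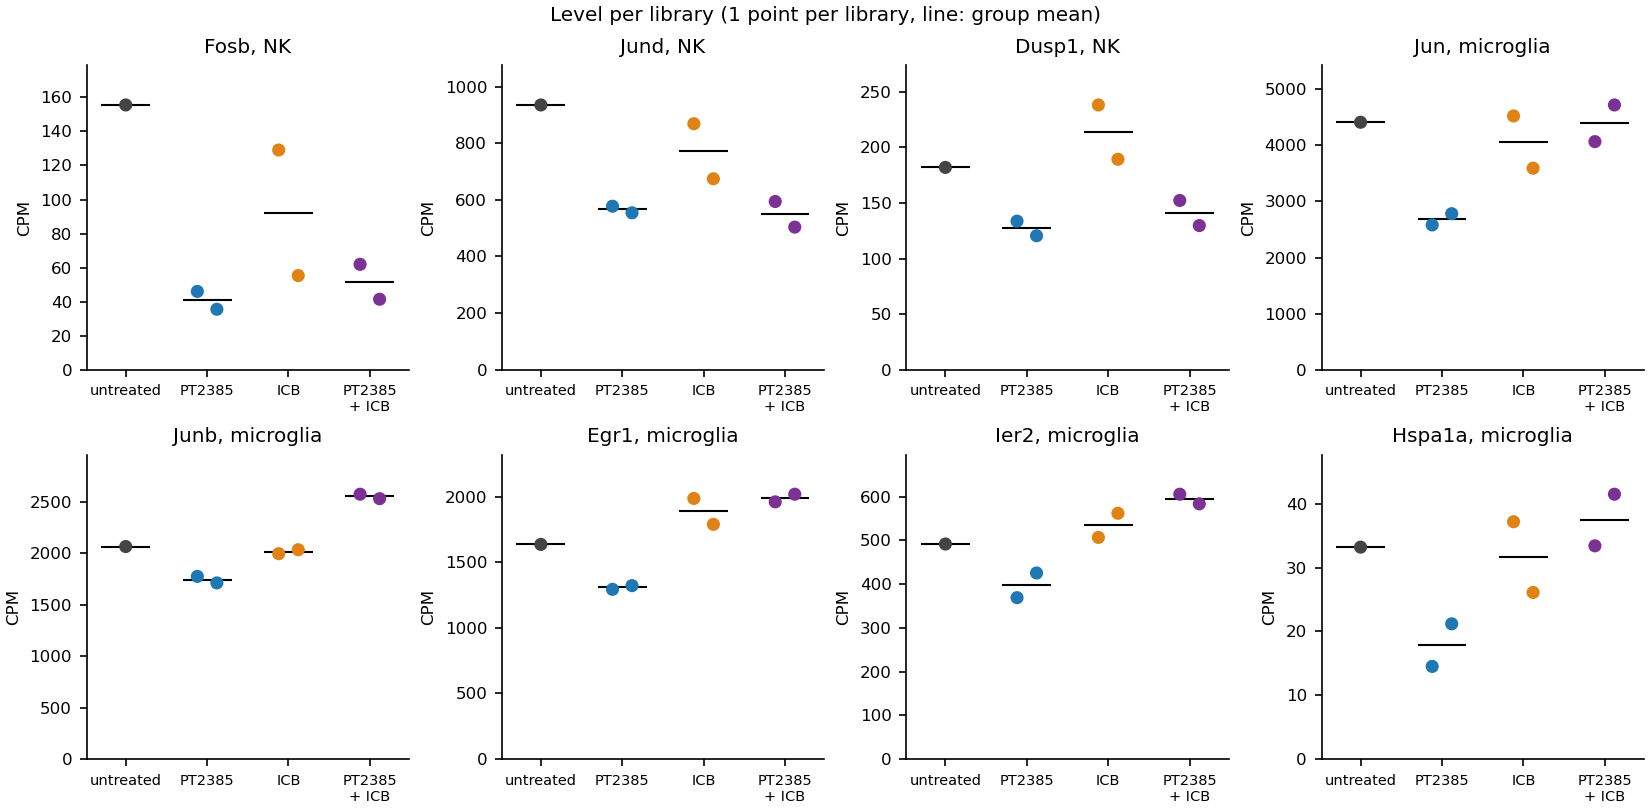
CPM per library (y axis, from 0) in the 4 groups (x axis) for 3 genes in NK cells and 5 in microglia, with lines at group means. In NK cells the 4 libraries with PT2385 were below the 3 without it for Jund and Dusp1 (which missed the threshold), and for Fosb ICB pool 2 lay among them. In microglia the 2 PT2385 pools were below the 2 combination pools for all 5 genes.

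In the mean over types, the combination against PT2385 alone passed for 0 of 10 members in limma (0.232% of genes did), with 6 of 10 at an unadjusted p under 0.05, where 7.35% of genes were. Jun had 0.45 ± 0.11 (limma adjusted p = 0.189), Fosb 0.64 ± 0.17 (limma adjusted p = 0.287) and Fos 0.43 ± 0.12 (limma adjusted p = 0.346). Fosb was above 0 in 7 of 7 types in the per-type fits, from 0.27 in dendritic cells to 1.31 in conventional CD4 T cells. For a type against the others 0 of 70 passed in limma, where 0.0117% of results did, and 10 of 70 had an unadjusted p under 0.05, where 7.25% of all did. Microglia departed by 0.60 ± 0.16 for Jund (limma adjusted p = 0.188), by 0.49 ± 0.14 for Ier2 (limma adjusted p = 0.206) and by 0.23 ± 0.24 for Jun (limma adjusted p = 0.702). Dendritic cells departed by -0.61 ± 0.19 for Fos (limma adjusted p = 0.654). The rises in microglia were therefore not shown to be limited to that type. This comparison shares its 4 libraries with the PT2385 effect and is not separate evidence.

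The interaction of PT2385 and ICB, also added after the values had been seen, rests on the 1 untreated library. In edgeR 0 of 70 results passed, where 0.0987% of all did, DESeq2 called 2 of 70 and 0.228% of all, and 19 of 70 had an unadjusted edgeR p under 0.05, where 6.12% of all did. The smallest p belonged to Jun (2.38 ± 0.48, edgeR adjusted p = 0.195) and Fos (1.70 ± 0.47) in conventional CD4 T cells and to Fosb in monocyte/macrophages (0.68 ± 0.15). In the mean over types 0 of 10 members passed in limma, where 0.041% of genes did, with 4 of 10 at an unadjusted p under 0.05, where 6.7% of genes were. Jun had the smallest p, with 0.87 ± 0.17 (limma adjusted p = 0.235), followed by Atf3 (0.63 ± 0.15) and Fos (0.52 ± 0.20).

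Genes of the same pathways were read from 5 lists. With PT2385 the other immediate early genes had 2 falls and 0 rises among 175 results, both in NK cells. They were Tnfaip3, an inhibitor of NF-kB signalling (-0.69 ± 0.11, edgeR adjusted p = 0.0124), and Ppp1r15a, a stress phosphatase subunit (-0.78 ± 0.15, edgeR adjusted p = 0.0245). The median of that list was -0.14, against 0.00 over all genes tested. AP-1 relatives (Fosl1, Fosl2, Batf, Batf3, Maff, Mafk) had 0 calls among 34 in edgeR, with 13 at an unadjusted p under 0.05 and a median of -0.24. MAP kinase phosphatases had 1 fall among 33 (Dusp10 in conventional CD4 T cells, -1.42 ± 0.19) and heat shock genes 0 calls among 86 in edgeR (7 unadjusted, median -0.04). Cytokine genes known to rise when microglia are handled outside the brain had 1 fall among 35, Ccl3 in monocyte/macrophages (-0.84 ± 0.13, edgeR adjusted p = 0.0461).

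For the combination against PT2385 alone the other immediate early genes had 6 rises and 0 falls among 175, all in microglia. The 6 were Gadd45b (1.07 ± 0.17), Klf4 (1.58 ± 0.33), Ier5 (0.59 ± 0.11), Nfkbia (0.52 ± 0.11), Nfkbiz (0.52 ± 0.11) and Btg2 (0.49 ± 0.11, edgeR adjusted p = 0.0445). The median of the list was 0.12 against 0.00 over all genes. In microglia Dusp2 (0.79 ± 0.17) was the 1 call among 33 results for MAP kinase phosphatases and Dnajb1 (0.74 ± 0.12) the 1 among 86 for heat shock genes. Cxcl2 rose in microglia (2.03 ± 0.43, edgeR adjusted p = 0.0310), while Ccl3 and Ccl4 fell in conventional CD4 T cells (-4.49 ± 0.41 and -3.50 ± 0.47). AP-1 relatives had 0 calls among 34 in edgeR, with 5 at an unadjusted p under 0.05. With ICB the lists gave 1 call, a fall of Ccl3 in conventional CD4 T cells (-3.03 ± 0.50, edgeR adjusted p = 0.0333). Against ICB alone the combination gave 1, a fall of Dusp10 in the same cells (-1.61 ± 0.25, edgeR adjusted p = 0.0276).

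The genes most like the members' mean z-score were sought over 7318 genes, with no test. Over the 7 type means the closest was Tmed7 (Pearson r = 0.994), followed by Washc4 (0.987), Tfe3 (0.985), Stard3 (0.981) and Snx30 (0.977), and these points share libraries. After each type's mean was removed, over 49 points that share 7 libraries, the closest were Ccnl1 (0.770), Ddx5 (0.747), Ifrd1 (0.723), 1810026B05Rik (0.702) and Pnrc1 (0.701). On that scale the members' own correlation with their mean was 0.778 for Fosb, 0.763 for Dusp1 and 0.720 for Jund, and 0.148 for Hspa1a. In type means it was 0.952 for Hspa1a and 0.951 for Jun, and 0.551 for Jund.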

How the data were processed

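The deposited files hold UMI counts per gene and barcode, which the authors had limited to called cells. Per the submitters' processing notes, Cell Ranger 2.2.0, Seurat 5 and GRCm39 were used, while the file headers name cellranger 7.0.0. The 10 genes and all lists were chosen with earlier results of these data known. A barcode was kept if it held 300 genes or more and its mitochondrial share did not exceed 10%. Scrublet in scanpy 1.11.5 marked 11 doublets by its own threshold, so the top scores were removed at 0.8% per 1000 barcodes, leaving 38441 cells. Cells were typed by the number of distinct markers detected (for example 6 for microglia and 4 for NK cells) with limits on markers of other lineages. The share of cells with no more own markers than needed ran from 4.03% in CD8 T cells to 29.0% in conventional dendritic cells.

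Counts were summed per type and library, passed through filterByExpr, scaled by TMM and compared by quasi-likelihood in edgeR 4.0.16, with Benjamini-Hochberg adjustment over the genes of a type. PT2385 and ICB came from an additive model (4 residual degrees of freedom), the combination and the interaction from 1 mean per group (3). Means over types and type differences were tested with limma 3.58.1 on log2 CPM (prior count 2). Libraries are pools of different mice, so p-values of the treatment effects within a type or over the mean of types measure the spread between pools. The fit of levels takes library as a block, and type differences are taken within a library. Their p-values measure how differences between types vary over the pools. Scripts were tested on simulated data. As alternatives, each library was left out in turn, doublets were kept, cells and gates were made stricter, CPM was averaged per cell, low counts were left unfiltered, and RLE scaling and DESeq2 1.42.0 were used. Genes were named where a result passed, and otherwise by the 3 smallest p per comparison.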

Additional observations from a re-analysis of the deposited data

How the results depend on the processing

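Of 70 gene-by-type results, the number passing for PT2385 (2 in the main analysis) was 4 with the stricter gate, which was chosen after seeing the data, 3 with DESeq2, with doublets kept or with 1 mean per group, 12 with no filter on low counts, and 0 to 3 with 1 library left out. For ICB (0) it was 1 with DESeq2, 6 with no filter and 0 to 4 with 1 library left out, the 4 coming without the untreated library. For the combination against ICB (0) it was 1 with the stricter gate, 8 with no filter and 0 to 1 with 1 library left out. For the combination against PT2385 alone (5) it was 2 with the stricter gate, 10 with no filter, 1 with means of per-cell CPM, 7 with DESeq2 and 0 to 9 with 1 library left out. Without the untreated library the ICB term equals the combination against PT2385 alone, and the PT2385 term the combination against ICB. That run is therefore no separate check of the ICB and PT2385 effects. The share of all gene-by-type results called moved too. For PT2385 it was 0.279% in the main analysis, 0.768% with the stricter gate, 1.84% with DESeq2, 1.21% with no filter and 0.0675% to 1.33% with 1 library left out. For ICB (0.0293%) it was 0.277% with DESeq2, 0.901% with no filter and 0.0298% to 0.859% with 1 library left out. For the combination against ICB (0.149%) it was 0.0872% with the stricter gate, 1.14% with no filter and 0.0863% to 2.2% with 1 library left out. Against PT2385 alone (0.711%) it was 0.244% with the stricter gate, 1.34% with no filter, 0.352% with means of per-cell CPM, 0.574% with DESeq2 and 0.0799% to 1.1% with 1 library left out. The cause was not tested. The stricter gate holds fewer cells and a fit without a library fewer samples. In the fit of levels 59 to 62 of 70 results passed under every alternative run. Between microglia and monocyte/macrophages 6 to 9 of 10 members differed. Over all genes 50244 of 80801 results on levels passed in the main analysis and 57468 of 174468 with no filter. With means of per-cell CPM 59512 of 111167 did. Between microglia and monocyte/macrophages 8725 of 11543, 11675 of 24924 and 8950 of 15881 genes differed, in the same order. For PT2385 and ICB, no alternative run gave a call in the mean over types or in a type against the others. Over all alternatives 0 results reversed. A gate allowing no marker of another lineage left 217 cells and was not run. No paired analysis was possible because the pools' numbers follow the order of the records, and the labels tie no pool of a group to a pool of another. The smallest types limit depth: regulatory T cells had 33 to 145 cells per library.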
